A study of Mus musculus with 3 samples.

Results

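Eif4a2 encodes a DEAD-box RNA helicase of the translation initiation factor eIF4F. It was examined here together with the other mRNAs of the eIF4 group in RNA interactome analysis and sequencing (RIA-seq). The members were the 10 genes whose symbol in the count tables was Eif4a1, Eif4a2, Eif4a3, Eif4b, Eif4h, Eif4e, Eif4g1, Eif4g3, Eif4g2 or Eif4ebp1, out of 26887 gene names listed in at least 1 of the 3 tables. All 10 were listed in every library, and all 10 passed the minimum of 10 counts used for folds.

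RIA-seq recovers RNAs that are held together with a chosen RNA in fixed cells. Mouse E14 embryonic stem (ES) cells, an undifferentiated feeder-free line of strain 129/Ola, were fixed with 1% glutaraldehyde for 10 min and sonicated, and each lysate was hybridized with antisense oligonucleotides against 1 RNA. The oligonucleotides were directed against Actb (Actb RIA-seq, the control), Malat1 (Malat1 RIA-seq) or Tfrc (Tfrc RIA-seq). Actb encodes β-actin, Malat1 is a long noncoding RNA found mainly but not only in the nucleus, and Tfrc encodes the transferrin receptor. There was 1 library per condition, so every comparison of these 3 libraries is between the reads of a pair of libraries, has no replicate check, and carries an interval for counting error only. RNA that was retained by the bead capture and RNA that was abundant in the lysate cannot be told apart, because no input library was analysed here.

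The eIF4F complex recruits the small ribosomal subunit to the capped end of an mRNA. Eif4e encodes the cap-binding subunit, the eIF4G proteins are scaffolds that join it to the ribosome, and the eIF4A helicases unwind RNA structure near the cap with help from eIF4B and eIF4H. The protein of Eif4ebp1 binds eIF4E and keeps it from the scaffold until it is phosphorylated by the mTOR kinase. Eif4a1 and Eif4a2 encode closely related cytoplasmic helicases, whereas the product of Eif4a3 is a nuclear helicase at the core of the exon junction complex.

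Short reads can be shared between genes of similar sequence, so the 3 helicase genes were compared in sequence. The sequences below show 30 coding bases around the part that encodes the DEAD-box motif, 5′ to 3′, read from the reference genome of build NCBIM37 (mm9). Capitals mark the 12 bases that encode the motif, and the set is shown because it displays how far the paralogs, and 1 pseudogene, can be told apart.

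Eif4a1: ttcgtactgGATGAAGCAGATgaaatgtta

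Eif4a2: ttcgttttgGACGAAGCAGATgaaatgttg

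Eif4a3: ctggttttgGATGAGGCTGATgaaatgttg

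Eif4a-ps4: ttcgtactgGATGAAGCAGATgaaatgtta

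The Eif4a1 stretch lies at chr11:69482206-69482235 on the minus strand and the Eif4a2 stretch at chr16:23110327-23110356 on the plus strand. The Eif4a3 stretch lies at chr11:119155646-119155675 on the minus strand, and each of the 3 falls within 1 coding exon. Eif4a2 differed from Eif4a1 at 4 of the 30 positions, which were A6T, C7T, T12C and A30G with positions counted from 1 at the 5′ end and the Eif4a1 base first. Eif4a3 differed from Eif4a1 at 7 positions. The pseudogene Eif4a-ps4, at chr1:60761310-60761339 on the plus strand, differed at 0 positions.

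Over the whole coding sequence, Eif4a1 and Eif4a2 were 77.8% identical, and their longest identical run was 20 bases. The coding sequence of Eif4a3 was 65.9% identical to that of Eif4a1 and 65.4% identical to that of Eif4a2. No stretch of 50 exonic bases was shared between Eif4a1 and Eif4a2. In contrast, the coding sequence of Eif4a1 was 99.7% identical to Eif4a-ps4 with a run of 684 identical bases, and 18.1% of its exonic 50-base stretches also occurred in genes elsewhere, including 6 pseudogenes. That share was 1.63% for Eif4a2, 11.1% for Eif4a3 and 7.75% for Eif4e. It was at most 1.20% for Eif4ebp1, Eif4b and Eif4g2, and 0% for Eif4h, Eif4g1 and Eif4g3. The handling of reads with several matches is not given in the sources used here. By exact 50-base stretches, values of Eif4a1, Eif4a3 and Eif4e are therefore less certain than those of the other members. A looser BLAST+ match, at least 80% identity over at least 100 bases, tied exons of Eif4g2 to 1018 other genes. For Eif4a1 there were 45 such genes and for Eif4a2 13, counting genes within or overlapping them, and for every other member at most 3.

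Hereafter the libraries are named by their targets. There were 10405209 counts in the Actb library, 10078439 in the Malat1 library and 14553941 in the Tfrc library. Each gene had up to 2 counts, one under its Ensembl identifier and one under the reference name Genome. What separates them is not given in the sources used here. Genome counts made up 5.26%, 19.0% and 15.1% of the 3 libraries in that order. The targets checked the labels: relative to the Actb library, the share of Malat1 was 5.81-fold higher in the Malat1 library and that of Tfrc was 2.69-fold higher in the Tfrc library, while Actb took 7.30% of its own library and 0.0889% and 0.0924% of the others. Malat1 was also 3.84-fold higher in the Tfrc library, and Tfrc was 2.33-fold higher in the Malat1 library. The fold of each target in its own library stood at percentile 99.05 of all genes tested for Malat1 and 88.24 for Tfrc. The direct ratio of the Malat1 to the Tfrc library was 1.514 for Malat1 (percentile 83.62) and 0.8644 for Tfrc (percentile 19.01). Both targets were thus higher in their own library, but the check was weaker for Tfrc and between the target libraries. Of 8 ES cell markers all were detected in every library, with summed shares of 2983, 3871 and 4193 counts per 1000000 counts, against 26.9, 38.7 and 35.4 for 9 markers of other lineages.

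Most genes had a larger share in either target library than in the Actb library. The median fold over all genes that reached 10 counts in each of the libraries compared was 1.82 for Malat1 over Actb (14572 genes), 1.56 for Tfrc over Actb (14691 genes) and 1.15 for Malat1 over Tfrc (16430 genes). On the log2 scale these shifts were 0.86, 0.64 and 0.21. The 10 genes with the largest counts, led by Lars2, took 52.0% of the Actb library, 23.2% of the Malat1 library and 32.6% of the Tfrc library, and the part of this in the shift was not tested. Summed folds of the members over the Actb library are therefore also set against the median gene. Folds of Malat1 over Tfrc and folds of other genes are ratios of shares unless stated otherwise. The 2 comparisons with the Actb library share that control library.

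Eif4a2 had 2291 Ensembl-ID and 95 Genome counts in the Actb library, 3475 and 313 in the Malat1 library, and 5751 and 335 in the Tfrc library. The summed counts corresponded to shares of 229 counts per 1000000 counts of the library (CPM; 95% Wilson interval 220 to 239), 376 (364 to 388) and 418 (408 to 429). The order was the Actb, Malat1 and Tfrc libraries, from lowest to highest, and the intervals did not overlap. Eif4a2 lies at chr16:23107517-23114209 on the plus strand, where its annotated transcripts cover 5.34 kb as merged exons and leave 1.36 kb as intron. Its last bases overlap those of Rfc4, a replication factor gene on the minus strand (176, 139 and 271 Ensembl-ID counts), and it is not stated whether strand was used in counting.

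The share of Eif4a2 was 1.64-fold higher in the Malat1 library than in the Actb library (95% counting interval 1.56 to 1.73), which was 0.901 of the median gene's fold (0.856 to 0.948). It stood at percentile 41.2 of all genes tested. In the Tfrc library it was 1.82-fold higher than in the Actb library (1.74 to 1.91), or 1.17 relative to the median gene (1.12 to 1.23), at percentile 64.3. The direct ratio of the Malat1 to the Tfrc library was 0.899 (0.863 to 0.936), or 0.779 relative to the median gene (0.748 to 0.812). Thus Eif4a2 was above the control in both target libraries by share, below the median gene in the Malat1 comparison, and above the median gene in the Tfrc comparison. With the 10 largest genes left out of the totals, the folds over the Actb library were 1.03 and 1.30.

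The kind of count mattered for these values. Unless stated otherwise, counts of 1 kind were divided by the library total of both kinds. From Ensembl-ID counts alone, the Malat1 over Actb fold of Eif4a2 was 1.57 (1.49 to 1.65), which was 1.11 relative to the median gene for such counts and so on the other side of the median than the summed counts. From Genome counts alone it was 3.40 (2.70 to 4.28), close to the median of 3.60 over the 8297 genes with enough Genome counts. Genome counts made up 3.98% of the counts of Eif4a2 in the Actb library, 8.26% in the Malat1 library and 5.504% in the Tfrc library, which was below the percentage of the whole library each time.

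The paralog Eif4a1, the main cytoplasmic helicase of eIF4F, had 8147 summed counts in the Actb library, 13746 in the Malat1 library and 13615 in the Tfrc library. Its shares were 783, 1364 and 936 CPM, so its highest library was the Malat1 library rather than the Tfrc library. It lies at chr11:69480438-69485925 on the minus strand. The fold over the Actb library was 1.74 (1.70 to 1.79) in the Malat1 library and 1.20 (1.16 to 1.23) in the Tfrc library, or 0.957 and 0.766 of the median gene. Eif4a1 was 1.46-fold higher in the Malat1 library than in the Tfrc library (1.42 to 1.49), the highest such fold of the 10 members. Relative to the median gene this was 1.26.

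Eif4a3, the exon junction helicase, had 909, 1008 and 1216 summed counts in the Actb, Malat1 and Tfrc libraries. Its shares were 87.4, 100.0 and 83.6 CPM, and it lies at chr11:119149677-119161403 on the minus strand. The fold over the Actb library was 1.15 (1.05 to 1.25) in the Malat1 library and 0.956 (0.878 to 1.04) in the Tfrc library, where the interval included 1. Relative to the median gene these were 0.629 and 0.614, the lowest values of the 3 helicases in both comparisons.

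**Figure D1:**
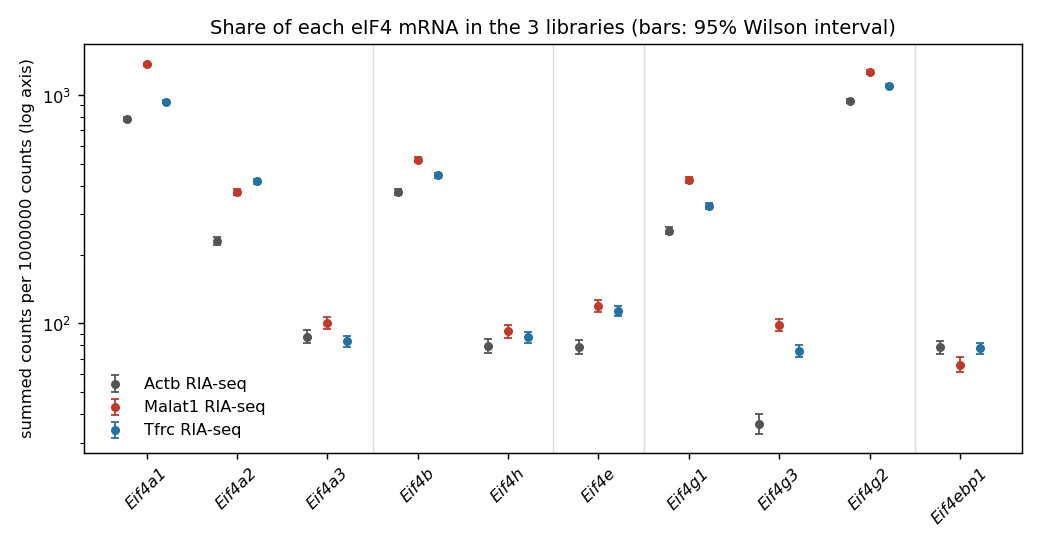
Summed counts per 1000000 counts of each library (log axis) for the 10 eIF4 mRNAs, with the Actb library in grey, the Malat1 library in red and the Tfrc library in blue, 1 library each. Bars are 95% Wilson intervals for counting error, grey lines part the roles, and values are not corrected for length; Eif4a2 is highest in the Tfrc library (418), Eif4a1 in the Malat1 library (1364), and Eif4ebp1 is lowest in the Malat1 library (65.7).

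The ratio of Eif4a2 to a paralog within a library does not depend on how libraries are scaled. The ratio of Eif4a2 to Eif4a1 summed counts was 0.293 in the Actb library (95% interval 0.280 to 0.307), 0.276 in the Malat1 library (0.266 to 0.286) and 0.447 in the Tfrc library (0.434 to 0.461). The Tfrc value stood apart from the other two. Between the Tfrc and Actb libraries the ratio differed by a factor of 1.53 (1.45 to 1.61, chi-square test on the 4 counts, p = 3.6e-52, Benjamini-Hochberg adjusted over 6 comparisons 1.08e-51). Between the Malat1 and Tfrc libraries the factor was 0.617 (0.588 to 0.646, chi-square adjusted p = 1.53e-90).

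Between the Malat1 and Actb libraries the factor was 0.941 (0.888 to 0.997, chi-square p = 0.04, adjusted 0.04). Ensembl-ID counts alone gave a factor of 0.8971 (0.8453 to 0.9521, chi-square adjusted p = 0.000346), further from 1. They gave 1.502 for Tfrc over Actb and 0.5974 for Malat1 over Tfrc. In summed counts, the small difference between the Malat1 and Actb libraries was sensitive to the near-identical pseudogene. Eif4a-ps4 was listed with 502, 405 and 553 counts, which were 6.16%, 2.95% and 4.06% of the Eif4a1 counts. When these counts were added to Eif4a1, a choice made after the data were seen, the factor was 0.970 (0.916 to 1.03, chi-square p = 0.307). The factors for Tfrc over Actb and Malat1 over Tfrc were then 1.56 (1.48 to 1.64) and 0.623 (0.595 to 0.653), and kept their side of 1.

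The ratio of Eif4a2 to Eif4a3 summed counts was 2.63 in the Actb library, 3.76 in the Malat1 library and 5.01 in the Tfrc library. It was higher than in the Actb library by a factor of 1.43 in the Malat1 library (1.29 to 1.59, chi-square adjusted p = 1.29e-11) and of 1.91 in the Tfrc library (1.73 to 2.10, adjusted p = 2.08e-38). Between the Malat1 and Tfrc libraries the factor was 0.751 (0.684 to 0.824, chi-square adjusted p = 1.61e-09). Ensembl-ID counts alone gave 1.458 for Malat1 over Actb, 2.098 for Tfrc over Actb and 0.6952 for Malat1 over Tfrc. Eif4a2 thus had a larger weight relative to Eif4a3 in both target libraries, and its weight relative to both paralogs was largest in the Tfrc library.

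Among all counts of the 3 helicases, Eif4a2 took 20.9% in the Actb library, 20.4% in the Malat1 library and 29.1% in the Tfrc library. Eif4a1 took 71.2%, 74.1% and 65.1%, and Eif4a3 took 7.94%, 5.44% and 5.81%. These percentages are of counts and are not corrected for length.

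Genome counts gave another picture for the paralog ratios. Eif4a1 had 48, 53 and 76 Genome counts, at most 0.589% of its counts in any library, and its Genome fold over the Actb library was 1.14 (0.771 to 1.69) in the Malat1 library and 1.13 (0.789 to 1.63) in the Tfrc library. It was the only member without a Genome fold of at least 2. From Genome counts alone, the ratio of Eif4a2 to Eif4a1 was 2.98-fold higher in the Malat1 than in the Actb library (chi-square adjusted p = 7.31e-06), the opposite direction to the summed counts. For Malat1 over Tfrc the factor against Eif4a3 also reversed, at 1.499 (1.142 to 1.968, chi-square adjusted p = 0.00688). Against Eif4a1 it was 1.34, with an interval of 0.913 to 1.965 that included 1 (chi-square adjusted p = 0.16).

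**Figure D2:**
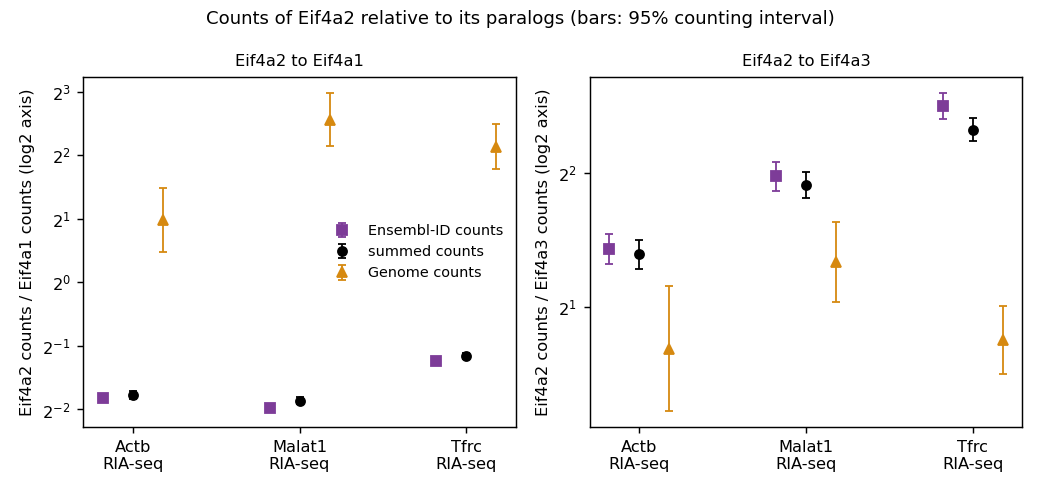
Ratio of Eif4a2 counts to Eif4a1 counts (left) and to Eif4a3 counts (right) in each of the 3 libraries, on log2 axes, from Ensembl-ID counts (purple squares), summed counts (black circles) and Genome counts (orange triangles). Bars are 95% counting intervals; the summed ratio to Eif4a1 is 0.293, 0.276 and 0.447, and Genome counts give higher ratios to Eif4a1 and lower ratios to Eif4a3 in every library.

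The cofactors Eif4b and Eif4h moved less than the median gene. Eif4b, whose product stimulates the helicase, had shares of 377, 522 and 445 CPM in the Actb, Malat1 and Tfrc libraries. Eif4h, which encodes a smaller protein with a related activity, had shares of 79.6, 92.2 and 87.0 CPM. By share Eif4b was highest in the Malat1 library, whereas for Eif4h the interval of Malat1 over Tfrc, 0.974 to 1.15, included 1. Relative to the median gene, the Malat1 over Tfrc fold of Eif4b was 1.016 (0.979 to 1.053). From Ensembl-ID counts alone, Eif4h had shares of 75.4, 69.9 and 74.6 CPM. Its Malat1 over Actb fold from these was 0.926 (0.836 to 1.03). Divided by the Ensembl-ID total instead, the fold was 1.08, so its side of 1 depended on the total used. Eif4b lies at chr15:101904204-101927603 on the plus strand and Eif4h at chr5:135095747-135115218 on the minus strand. The folds over the Actb library were 1.38 (1.33 to 1.44) and 1.18 (1.14 to 1.23) for Eif4b, and 1.16 (1.06 to 1.27) and 1.09 (1.00 to 1.19) for Eif4h. Relative to the median gene they lay between 0.637 and 0.760.

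The cap-binding factor Eif4e had shares of 78.8, 119 and 113 CPM in the Actb, Malat1 and Tfrc libraries. It was higher than in the control by 1.51-fold (1.38 to 1.65) in the Malat1 library and 1.44-fold (1.32 to 1.56) in the Tfrc library. The interval of Malat1 over Tfrc, 0.976 to 1.13, included 1. Eif4e lies at chr3:138189155-138220563 on the plus strand. Relative to the median gene the folds were 0.831 and 0.923.

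The scaffold genes differed among themselves. Eif4g1, the main scaffold, had shares of 255, 424 and 327 CPM in the Actb, Malat1 and Tfrc libraries. Eif4g3, which encodes a second scaffold of the same kind, had shares of 36.0, 98.1 and 75.5 CPM. Eif4g2 encodes a related protein (also called DAP5) that lacks the site for eIF4E, and it had shares of 937, 1260 and 1099 CPM. By share of summed counts all 3 were lowest in the Actb library and highest in the Malat1 library, but the folds were unequal. Relative to the median gene, the Malat1 over Tfrc fold was 1.125 (1.08 to 1.173) for Eif4g1 and 1.127 (1.034 to 1.228) for Eif4g3. For Eif4g2 it was 0.994 (0.971 to 1.018), where the interval included 1.

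From summed counts, Eif4g3 had the highest fold of the 10 members in both comparisons with the control. It was 2.72-fold higher in the Malat1 library (2.42 to 3.07; 1.496 relative to the median gene, percentile 80.2) and 2.10-fold higher in the Tfrc library (1.86 to 2.36; 1.34 relative to the median gene, percentile 74.8). Eif4g1 was 1.66-fold (1.59 to 1.75) and 1.28-fold (1.22 to 1.34) higher, and Eif4g2 1.35-fold (1.31 to 1.38) and 1.17-fold (1.14 to 1.20). Both lay below the median gene in both comparisons. Eif4g1 lies at chr16:20668386-20692957 on the plus strand and Eif4g2 at chr7:118211499-118226544 on the minus strand.

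Eif4g3 was also the member with the largest percentage of Genome counts. These were 133 of its 375 counts in the Actb library (35.5%), 544 of 989 in the Malat1 library (55.0%) and 513 of 1099 in the Tfrc library (46.7%). Eif4g3 is the longest member, at chr4:137548937-137764423 on the plus strand, with 204 kb of intron and 11.0 kb of merged exons. From Ensembl-ID counts alone its folds over the Actb library were 1.90 (1.62 to 2.22) and 1.73 (1.49 to 2.01), both under 2. In the Tfrc comparison that of Eif4a2 was then higher at 1.80 (1.71 to 1.88). Divided by the Ensembl-ID total instead, the folds of Eif4g3 were 2.22 and 1.93, so the first was above 2. That of Eif4a2 in the Tfrc comparison was then 2.00.

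Eif4ebp1, the repressor of eIF4E, ran against the other members in the Malat1 library. It had 815, 662 and 1130 summed counts in the Actb, Malat1 and Tfrc libraries, and shares of 78.3, 65.7 and 77.6 CPM. It lies at chr8:28370799-28386128 on the plus strand. It was the only member with a lower share in the Malat1 than in the Actb library, with a fold of 0.839 (0.757 to 0.929). That was 0.461 of the median gene (percentile 6.25). In the Tfrc library the fold was 0.991 (0.906 to 1.09), which included 1, and 0.636 of the median gene.

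The 2 kinds of counts of Eif4ebp1 went in opposite directions. Ensembl-ID counts were 764, 455 and 927, with a Malat1 over Actb fold of 0.615 (0.548 to 0.691). Genome counts were 51, 207 and 203, with a fold of 4.19 (3.09 to 5.69), beside a median of 3.60 over all genes. Genome counts thus made up 6.26%, 31.3% and 17.96% of this gene. Over the Genome total its Genome fold was 1.16. Such a split was not particular to Eif4ebp1. In Tfrc over Actb, Eif4a3 had 0.855 (0.781 to 0.937) from Ensembl-ID and 2.41 (1.80 to 3.22) from Genome counts. In Malat1 over Actb, Eif4h had the highest Genome fold of the members, 5.40 (3.90 to 7.49), beside its Ensembl-ID fold of 0.926 (0.836 to 1.03). Of the counts of Eif4ebp1 and its binding partner together, Eif4e took 50.2% in the Actb library, 64.5% in the Malat1 library and 59.4% in the Tfrc library, again of counts and not corrected for length.

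**Figure D3:**
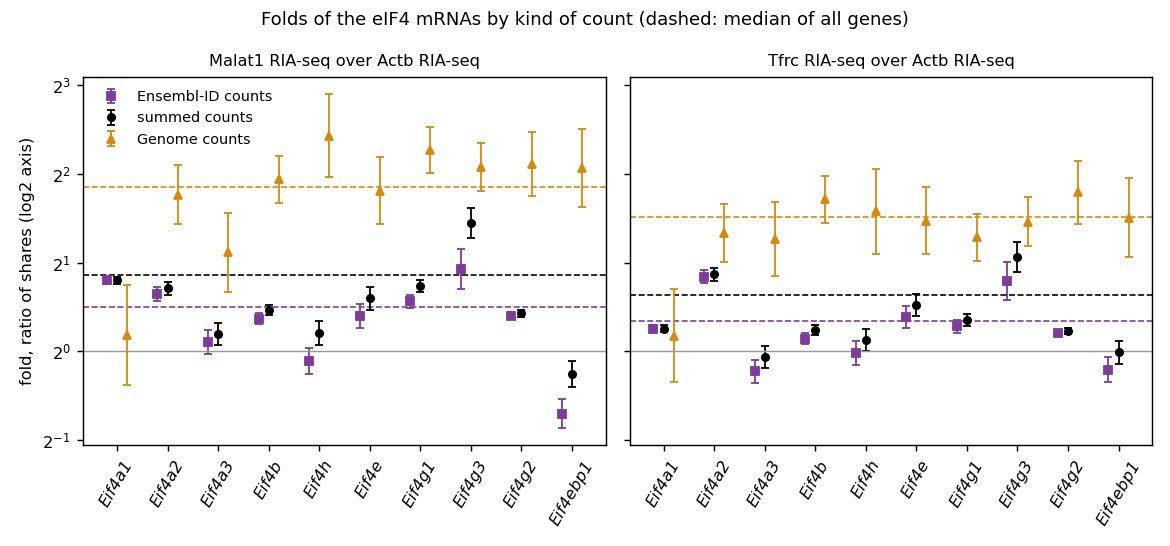
Fold of the share of each eIF4 mRNA in the Malat1 library (left) and the Tfrc library (right) over the shared Actb library control, on log2 axes, from Ensembl-ID counts (purple squares), summed counts (black circles) and Genome counts (orange triangles). Bars are 95% counting intervals and dashed lines the median over all genes for each kind of count; 9 of 10 summed folds lie under the dashed line at 1.82 on the left and 8 of 10 under that at 1.56 on the right.

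Counted over the group, 1 of 10 members (Eif4g3) reached a fold of 2 in Malat1 over Actb, against 42.1% of all genes. In Tfrc over Actb it was again 1 of 10 (Eif4g3), against 28.6%, and in Malat1 over Tfrc 0 of 10, against 4.35%. The percentage of all genes was lower among genes with more counts. With a minimum of 50 counts, which every member passed, it was 37.6%, 20.8% and 2.36% in the 3 comparisons. A fold of 0.5 or less was seen for 0 members in the 3 comparisons in this order, against 0.954%, 0.388% and 1.92% of all genes. The median member fold was 1.45, 1.19 and 1.16 in the 3 comparisons, beside 1.82, 1.56 and 1.15 over all genes.

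The direction of the group depended on the scaling. By share, 9 of 10 members were above 1 in Malat1 over Actb (88.7% of all genes) and 8 of 10 in Tfrc over Actb (87.2%). Relative to the median gene, only 1 of 10 was above 1 in the former (Eif4g3) and 2 of 10 in the latter (Eif4g3 and Eif4a2). From Ensembl-ID counts alone these numbers were 4 and 3 of 10. The summed share of all 10 members was 2942 CPM in the Actb library (2909 to 2975), 4421 in the Malat1 library (4380 to 4462) and 3662 in the Tfrc library (3631 to 3693).

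From Ensembl-ID counts, 0 of 10 members reached a fold of 2 in Malat1 over Actb, where 24% of all genes did. In Tfrc over Actb it was also 0 of 10, where 14.1% did. Over the Ensembl-ID total, 2 of 10 did in the former (34.5% of all genes) and 1 of 10 in the latter (19.7%). From Genome counts, 9 of 10 members reached a fold of 2 in Malat1 over Actb (88.6% of all genes) and the same number in Tfrc over Actb (79.6%). Over the Genome total, 0 of 10 did in either comparison (2.41% and 2.13% of all genes). Genome counts were 2.81%, 7.23% and 6.17% of all member counts in the Actb, Malat1 and Tfrc libraries. That was less than in the libraries as a whole, and the percentage rose from the Actb to the Malat1 library for every member except Eif4a1.

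**Figure D4:**
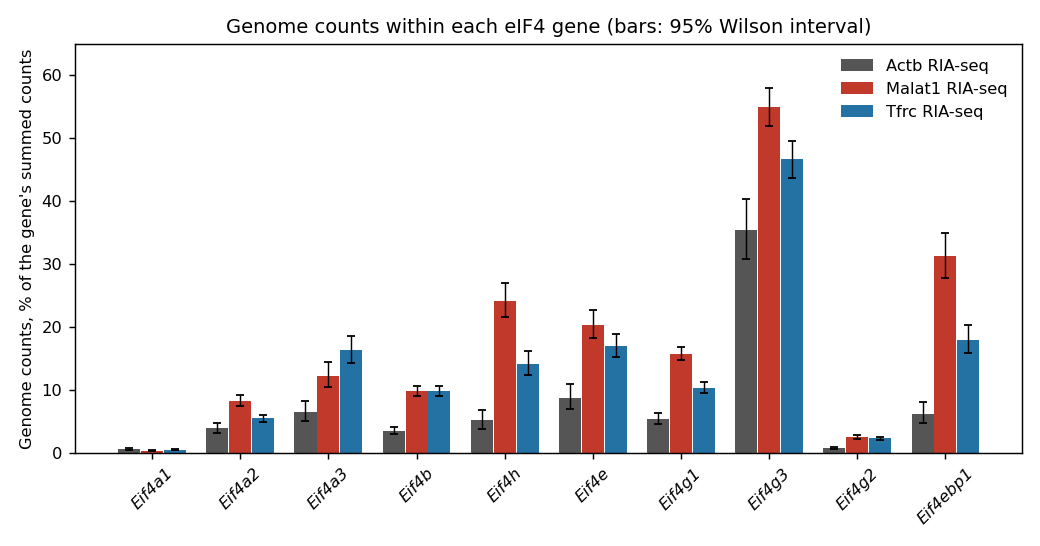
Genome counts as a percentage of the summed counts of each eIF4 gene in the Actb (grey), Malat1 (red) and Tfrc (blue) libraries, 1 library each, with 95% Wilson intervals. Eif4g3 has the highest percentage in every library (35.5, 55.0 and 46.7), Eif4a1 the lowest (at most 0.589), and Eif4ebp1 goes from 6.26 to 31.3 between the Actb and Malat1 libraries.

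Compared pair by pair from summed counts, the fold of Eif4a2 in Malat1 over Actb was higher than that of 5 of the 9 other members (Eif4a3, Eif4b, Eif4h, Eif4g2 and Eif4ebp1) and lower than that of 2 (Eif4a1 and Eif4g3), with intervals for the ratio of folds that left out 1. For Eif4e and Eif4g1 the interval included 1. In Tfrc over Actb Eif4a2 was higher than 8 of 9 and lower than 1, which was Eif4g3. In Malat1 over Tfrc it was higher than 0 and lower than 8 of 9. Eif4ebp1 was the remaining member, with a ratio of the Malat1 to the Tfrc library of 0.846 (0.769 to 0.931). From Ensembl-ID counts alone, Eif4a2 was higher than 6 and lower than 2 of 9 in Malat1 over Actb, with Eif4e added to the former. It was higher than 8 and lower than 0 in Tfrc over Actb, where the interval against Eif4g3 included 1 (factor 1.04, 0.886 to 1.21). In Malat1 over Tfrc it was then higher than 1 (Eif4ebp1, factor 1.23, 1.09 to 1.39) and lower than 7, and the interval against Eif4h included 1.

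Levels were compared between genes only per length, as Ensembl-ID counts per 1000000 library counts per kb of merged exons, a measure that understates genes whose annotated exons are rarely used. In the Actb library the order was Eif4a1 (180), Eif4b (94.5), Eif4g2 (93.6), Eif4ebp1 (74.9), Eif4a2 (41.3), Eif4a3 (38.5), Eif4g1 (33.4), Eif4h (31.1), Eif4e (24.9) and Eif4g3 (2.11). The neighbours Eif4b and Eif4g2, Eif4a2 and Eif4a3, and Eif4g1 and Eif4h did not differ beyond their counting intervals. Eif4a1 was highest and Eif4g3 lowest in all 3 libraries. The level of Eif4a2 was 64.6 in the Malat1 library and 74.0 in the Tfrc library, where it stood behind Eif4a1, Eif4g2 and Eif4b and was separated from its neighbours on both sides. Eif4ebp1 lay below Eif4a2 in these libraries, at 46.0 and 64.9.

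Small nucleolar RNA (snoRNA) genes, whose products guide chemical modification of other RNAs, lie within several members. The 5 within Eif4a2 had 35 counts in the Actb library, 60 in the Malat1 library and 88 in the Tfrc library, between 1.45% and 1.58% of the host gene's counts. Snord2 was not listed in any library, where 3 counts would correspond to between 0.206 and 0.298 CPM, and the first SNORA63 copy had 0, 1 and 3 counts. The second SNORA63 copy had 23, 19 and 38 counts, SNORA4 had 9, 31 and 26, and Snora81 had 3, 9 and 21. Thus counts for the snoRNAs of Eif4a2 were few in every library. Within Eif4a1, SNORA67 had 1, 2 and 1 counts, snoU6-77 had 3, 4 and 3, and SNORA48 had 1, 10 and 8. SNORA63, SNORA67 and SNORA48 are names that several genes carry, so values are those of the identifier within the host. The snoRNAs within Eif4g1 (Snord66) and Eif4g2 (snoU97) had at most 1 count in any library. The microRNA gene within Eif4e (Mir1956) had 0 Ensembl-ID counts in every library.

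Among the 865 genes that had 1000 or more counts in every library, 5 lay nearest to Eif4a2 by their log2 folds in the Malat1 and Tfrc libraries over the shared Actb control. They were Csnk1a1, a casein kinase, with folds of 1.69 and 1.87, Rbm39, a splicing factor, with 1.71 and 1.82, and Mga, a transcription factor, with 1.57 and 1.87. Qk, an RNA-binding protein, had folds of 1.54 and 1.79 and Ppp6r3, a phosphatase subunit, of 1.70 and 1.72. The distance to Eif4a2 on the log2 scale was between 0.06 and 0.10 for these genes, and 4 of the 865 genes (0.463%) lay within 0.1. For the members with enough counts it was 0.51 (Eif4g1), 0.62 (Eif4a1), 0.67 (Eif4b) and 0.70 (Eif4g2), so no member was as near.

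The other mRNAs of translation initiation gave a background for the eIF4 group. Of 21 regulators and partners of eIF4F, such as its kinases, further cap-binding proteins and poly(A)-binding proteins, 19 passed the count minimum, with a median Malat1 over Actb fold of 1.47. Of these, 4 of 19 reached a fold of 2, against 42.1% of all genes, and 7 were above the median gene. The highest were Eif4e3, a divergent cap-binding protein, at 5.62 (4.26 to 7.41), and Rptor, a subunit of an mTOR complex, at 3.38 (3.10 to 3.69). The lowest were Eif4ebp2, a relative of Eif4ebp1, at 0.910 (0.843 to 0.983), and Pabpc1, the main poly(A)-binding protein, at 1.01 (0.985 to 1.04).

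The 13 subunits of eIF3, the complex that bridges the eIF4G scaffold and the small ribosomal subunit, had a median fold of 1.24 in Malat1 over Actb. None reached 2 (0 of 13, against 42.1% of all genes), and 0 of 13 were above the median gene. The range ran from Eif3m at 0.724 (0.639 to 0.819) and Eif3g at 0.790 to Eif3a at 1.71 and Eif3j at 1.77 (1.60 to 1.958). Of 20 other initiation factors 1 reached a fold of 2 (again against 42.1% of all genes), with a median of 1.19. That gene was Eif5b, which promotes subunit joining, at 2.46 (2.34 to 2.59), followed by Eif2b3 at 1.90. Eif6, which keeps ribosomal subunits apart, was lowest at 0.609 (0.534 to 0.696), followed by Eif1b at 0.719.

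For the exon junction complex, to which Eif4a3 belongs, 4 of 10 other genes of the complex and its nonsense-mediated decay partners reached a fold of 2, close to the 42.1% of all genes, and the median was 1.68. Upf3b (4.44, 3.69 to 5.34) and Upf2 (2.20, 1.97 to 2.46), both of nonsense-mediated decay, were highest, whereas Rnps1 (0.918, 0.840 to 1.00) and Upf3a (1.08) were lowest. In Tfrc over Actb the medians of the eIF4F regulators, eIF3 subunits, other factors and exon junction genes were 1.28, 0.945, 1.19 and 1.18, beside 1.19 for the 10 members and 1.56 for all genes. Fold values of at least 2 were seen for 4, 0, 1 and 1 genes of these lists (of 19, 13, 20 and 10 with enough counts), against 28.6% of all genes, and values of 0.5 or less for 0 genes of any list in either comparison. Thus every one of these list medians was below that of all genes in both comparisons with the Actb library.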

How the data were processed

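RIA-seq was done on mouse E14 ES cells with 1 library per condition, grouped by the oligonucleotide target in the labels. The authors deposited raw read counts per gene for each library, not normalized. The submitters' processing notes name Bowtie 0.12.7 and the builds mm9 and NCBIM37. The counting rule, strand and multiple matches are not given in the sources used here. Ensembl-ID and Genome counts of each gene were summed and divided by the library total. Counts of 1 kind alone were divided by the same total unless stated otherwise. Folds used a pseudocount of 0 and genes that reached 10 counts in each of the libraries compared. Shares have 95% Wilson intervals. Folds and ratios have 95% intervals on the log scale from the counts, and cover counting error only, as PCR duplicates cannot be removed. The smallest detectable share, 3 counts, was 0.206 to 0.298 counts per 1000000. Ratios of paralogs were compared with chi-square tests (two-sided, uncorrected for continuity) on the 4 counts, with Benjamini-Hochberg adjustment. Such a test compares a pair of libraries, not conditions.

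The genes named were the 10 members, genes within them, the 2 highest and 2 lowest Malat1 over Actb folds of each list, the 5 genes nearest to Eif4a2, and the targets. Members, lists and tests were chosen with earlier results of these data known. The intervals and the test were tried on simulated counts that held counting error only (Poisson). Such counts cannot show how the intervals or the test behave under variation between libraries or PCR duplicates. Coordinates, exons and sequences came from NCBIM37. Alternatives were other scalings, count kinds, minimums, a pseudocount of 1 and a fold of 1.5. Python 3.11.15, numpy 2.4.6, scipy 1.17.1 and pandas 2.3.3 were used.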

Additional observations from a re-analysis of the deposited data

Results flagged for a closer look

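The snoRNA genes within Eif4a1 and Eif4a2 lay outside the comparisons of the mRNAs, and 3 of their ratios of shares to the Actb RIA-seq control had a counting interval above 1. These 3 were picked for that reason, and every other ratio that could be computed had an interval that included 1. Of all genes, 88.7% were above 1 in Malat1 over Actb and 87.2% in Tfrc over Actb. SNORA48 within Eif4a1 was 10.32-fold higher in Malat1 RIA-seq (10 against 1 counts, interval 1.32 to 80.7). Snora81 within Eif4a2 was 5.005-fold higher in Tfrc RIA-seq (21 against 3 counts, interval 1.49 to 16.8). SNORA4 within Eif4a2 was 3.556-fold higher in Malat1 RIA-seq (31 against 9 counts, interval 1.69 to 7.47). All 3 intervals also included the fold of the median gene, which was 1.82 for Malat1 over Actb and 1.56 for Tfrc over Actb. All 3 control counts were under the minimum of 10 used for folds, and the first 2 were 1 and 3. SNORA48 shares its name with other genes, and the control library is the same in each case. No replicate checks these values.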

How the results depend on the processing

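No paired analysis was possible because there was 1 library per condition. For the same reason no library was left out.

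The share of Eif4a2 was 220.2, 344.8 and 395.2 counts per 1000000 in Actb, Malat1 and Tfrc RIA-seq from Ensembl-ID counts alone, and 477.6, 489.5 and 620.3 when the 10 largest genes were left out of the totals. Its Malat1 over Actb fold of 1.64 became 0.9006 with median ratio scaling, 0.9248 with scaling by the 75th percentile, 1.534 without the 3 targets, 1.025 without the 10 largest genes, 1.833 from Ensembl-ID counts over their own total and 0.9389 from Genome counts over their own total. In the same order, its Tfrc over Actb fold of 1.82 became 1.17, 1.202, 1.701, 1.299, 2.003 and 0.8773. Its Malat1 over Tfrc ratio became 0.7794, 0.7727 and 0.789 with the median, the 75th percentile and without the 10 largest genes, and 1.07 from Genome counts over their own total.

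In Malat1 over Actb, the number of members at a fold of 2 was 0 with median, 75th percentile, 10 largest genes and Genome alternatives, 2 from Ensembl-ID counts over their own total, and 5 at a fold of 1.5. The percentage of all genes was then 7.384, 8.132, 11.64 and 2.411, 34.54 from Ensembl-ID counts, and 65.56 at a fold of 1.5. In Tfrc over Actb the number was 0 in the same order of alternatives, with percentages of 6.902, 7.665, 10.16 and 2.133, and also 0 without the 3 targets, with 23.95. It was 2 at a fold of 1.5, with 53.33. In Malat1 over Tfrc the percentage of genes was 2.173, 2.1 and 2.301 with the median, the 75th percentile and without the 10 largest genes, 9.131 with no minimum, 2.359 with a minimum of 50 counts and 17.12 at a fold of 1.5.

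From Genome counts alone, the Eif4a2 to Eif4a1 factor reversed to 2.984 in Malat1 over Actb. It was 1.34 in Malat1 over Tfrc, with an interval of 0.913 to 1.965 that included 1. The Eif4a2 to Eif4a3 factor reversed to 1.499 in Malat1 over Tfrc and fell short of the threshold at 1.045 in Tfrc over Actb. With Eif4a-ps4 added to Eif4a1 in summed counts, the Malat1 over Actb factor against Eif4a1 was 0.9703, and Ensembl-ID counts alone gave 0.8971. The Tfrc over Actb fold of Eif4g3 reversed to 0.9596 from Genome counts over their own total. For the other 9 members, 62 of 189 values stayed within the counting interval of the reported fold, and 58 lay on the other side of 1, of which 16 each were from median and 75th percentile scaling, 13 from Genome counts, 12 without the 10 largest genes and 1 from Ensembl-ID counts. The cause was not tested beyond the construction of each alternative. The Genome counts of Eif4a1, Eif4h and Eif4ebp1 in the Actb library (48, 43 and 51) and the counts of the snoRNAs were few.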
